A study of Homo sapiens with 9 samples.

Results

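The 43 genes described here encode proteins of the lysosome and regulators of autophagy, and they were taken by symbol from the 16199 genes listed in at least 1 of 9 transcriptomes of HaCaT cells, an immortalized human keratinocyte line. They comprise 8 membrane proteins, lipid carriers and a calcium channel, 8 proteases, 7 glycosidases, 5 proteins of lipid hydrolysis, 5 subunits of the proton pump, 2 transcription factors and 8 autophagy proteins. All 43 were listed in each of the 9 libraries, with between 13 and 30848 expected counts per library, and all 43 were among the 12394 genes that passed the count filter. The study asked how bleogen pB1, a cysteine-rich peptide of the cactus Pereskia bleo that activates the EGF receptor (EGFR), acts on keratinocytes beside EGF, the natural ligand of that receptor. Cells labelled WT were grown to confluence and were then kept in serum free media alone (untreated, n = 3) or received EGF at 10 nM (n = 3) or bleogen pB1 at 1 µM (n = 3) for 24 h. The doses differ, and each agonist was used at 1 dose and 1 time. Neither the labels nor the methods say that the 3 libraries of a group came from separate cultures, so the p-values measure only the spread between these libraries.

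Lysosomes are acidic compartments in which hydrolases break down proteins, glycans and lipids that arrive by endocytosis or by autophagy, the enclosure of cytoplasm in a double membrane that then fuses with the lysosome. A proton pump of the vacuolar type keeps the lumen acidic, and membrane proteins line it, carry lipids out of it and release its calcium. In nutrient-rich cells the kinase complex mTORC1 holds the transcription factors TFEB and TFE3 in the cytoplasm, and on starvation they enter the nucleus and bind an E-box in the promoters of many lysosomal genes, known as the CLEAR element. In the epidermis, lysosomal cathepsins take part in the processing of proteins as keratinocytes mature.

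The promoters of 5 members are shown because they carry letters that this network is known to read. RefSeq promoter windows on GRCh38.p14, from 250 bases before to 50 bases after the start of transcription, were found for 33 of the 43 members. The windows were searched for the palindromes CACGTG and TCACGTGA, the second of which contains the first and both of which read the same on the 2 strands. CACGTG occurred in 8 of the 33 genes (24.2%) against 8.78% of all genes with a window, and TCACGTGA in 5 (15.2%) against 1.18%. The 5 stretches follow 5′ to 3′ on the strand of the gene, with the 8-letter match in capitals, and stop where an annotated exon of the gene begins, except for CTSA, where longer transcripts of GENCODE release 44 cover the match and 30 bases are shown.
LAMP1, chr13:113297170-113297238, plus strand: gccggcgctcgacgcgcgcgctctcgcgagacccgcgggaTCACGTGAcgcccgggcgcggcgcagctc
MCOLN1, chr19:7522542-7522623, plus strand: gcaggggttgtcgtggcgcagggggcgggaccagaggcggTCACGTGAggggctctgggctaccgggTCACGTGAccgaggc
CTSA, chr20:45891298-45891327, plus strand: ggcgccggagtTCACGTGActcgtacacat
GAA, chr17:80101464-80101532, plus strand: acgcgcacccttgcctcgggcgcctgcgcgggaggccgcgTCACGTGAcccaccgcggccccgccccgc
ATP6V0D1, chr16:67481182-67481257, minus strand: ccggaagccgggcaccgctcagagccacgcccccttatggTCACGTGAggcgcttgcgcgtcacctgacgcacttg
The MCOLN1 stretch holds 2 matches, and the windows of LAMP1 and GAA also hold 2 each, 1 of them outside the stretch shown. In MCOLN1 the first base of the first match lies at −42 from the start, against −29 in LAMP1, −26 in CTSA, −77 in GAA and −60 in ATP6V0D1. A match is a description of these letters only. The windows of ATP6V1A, ATP6V1B2, ATP6V1H, LAMP2, CTSB, HEXA, NAGLU, PSAP, ASAH1 and TP53INP1 were not used here.

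The libraries held from 20288417 to 21320994 expected counts, so that a floor of 3 counts stood at 0.141 to 0.148 CPM, a count corrected for library size (counting error only). All 8 keratinocyte markers, such as KRT5 and KRT14, were present, with summed levels of 14750 to 16475 CPM in the untreated, 12252 to 12770 in the EGF-treated and 15064 to 18108 in the bleogen pB1-treated libraries. The markers did not move as a set with EGF. KRT5 (mean 7811 CPM untreated, 3604 CPM with EGF), KRT17, DSP and PKP1 were lower. KRT14 (mean 1578 CPM untreated, 2908 CPM with EGF), TP63, SFN and ITGB4 were higher. Differentially expressed genes (DEGs) passed 0.05 in adjusted p by edgeR's quasi-likelihood test and |log2FC| of at least 0.5, with both treatments compared with the same 3 untreated libraries. Log2 fold changes are followed by ± SE, and "rose" and "fell" are used of DEGs. Less RNA of a gene per cell and fewer cells that express it cannot be told apart in these bulk samples.

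In untreated cells the 43 transcripts covered a wide range of levels, which are compared here as FPKM because FPKM takes account of gene length. The most abundant was CTSD, the aspartic protease cathepsin D, at 713 ± 13.1 FPKM (mean ± SD, n = 3). It was followed by NPC2, which hands cholesterol over inside the lumen, at 387 ± 14.1 FPKM. LAMP1, the glycoprotein that lines the inner face of the membrane, stood at 286 ± 8.42 FPKM and PSAP, the precursor of the saposins, at 280.4 ± 4.35 FPKM, and the 3 libraries of these 2 genes overlapped. At the other end were TFEB at 5.20 ± 0.177 FPKM, the autophagy proteins TP53INP1 at 2.69 ± 0.170 FPKM and TP53INP2 at 2.36 ± 0.182 FPKM, and WIPI1 at 1.10 ± 0.0208 FPKM. The libraries of TP53INP1 and TP53INP2 overlapped too, whereas TFEB lay above TP53INP1 and WIPI1 below TP53INP2 in every library.

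**Figure D1:**
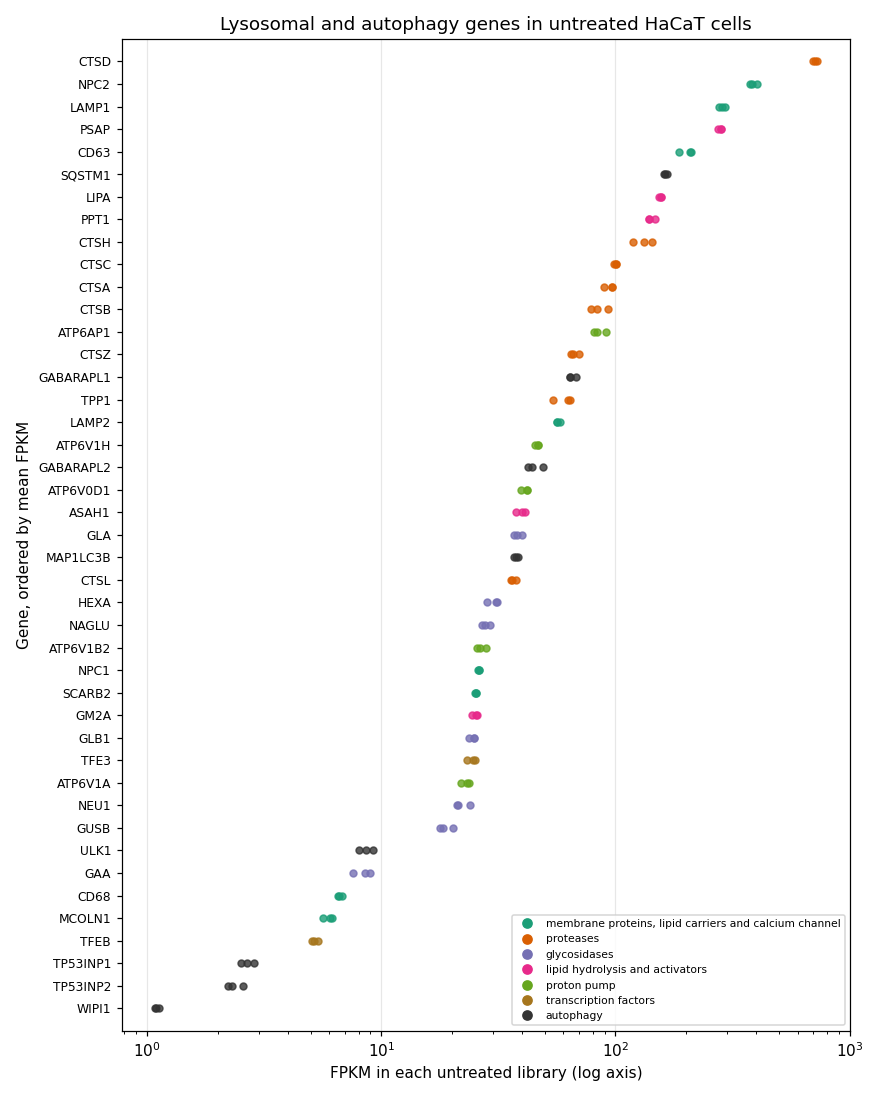
FPKM of the 43 genes in the 3 untreated libraries (log axis, 1 point per library, colour by role), ordered by the mean. CTSD stands highest at 713 FPKM and WIPI1 lowest at 1.10 FPKM.

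Treatment with EGF lowered more of these transcripts than it raised. Of the 43 members, 18 were DEGs, 15 lower and 3 higher than in untreated cells, and 36.9% of all 12394 genes tested were DEGs in this comparison (21.8% lower and 15.1% higher). The transcripts that fell included hydrolases for protein (CTSH, CTSB), glycogen (GAA), heparan sulfate (NAGLU) and lipid (PPT1, LIPA), and those that rose were CD68, CTSL and GLA. At adjusted p alone, 34 members passed against 66.1% of all genes, with 24 members lower and 10 higher against 33.6% and 32.4%. The median log2 fold change was −0.42 over the 43 members and −0.01 over all genes. Together the 43 genes took 0.811%, 0.828% and 0.787% of the counts of the untreated libraries and 0.543%, 0.634% and 0.588% of those of the EGF-treated libraries, a sum in which CTSD has the largest share. In 36 of the 43 genes the EGF-treated and untreated libraries did not overlap (25 lower, 11 higher), and 70.4% of all genes did not overlap (35.9% lower, 34.5% higher). Single genes cannot reach a p under 0.1 by exact permutation of 3 against 3 libraries. With upper-quartile scaling the median of all genes moved to −0.12, the split of all DEGs went from 1875 higher and 2703 lower to 1396 and 3221, and 24 members were DEGs (3 higher, 21 lower).

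**Figure D2:**
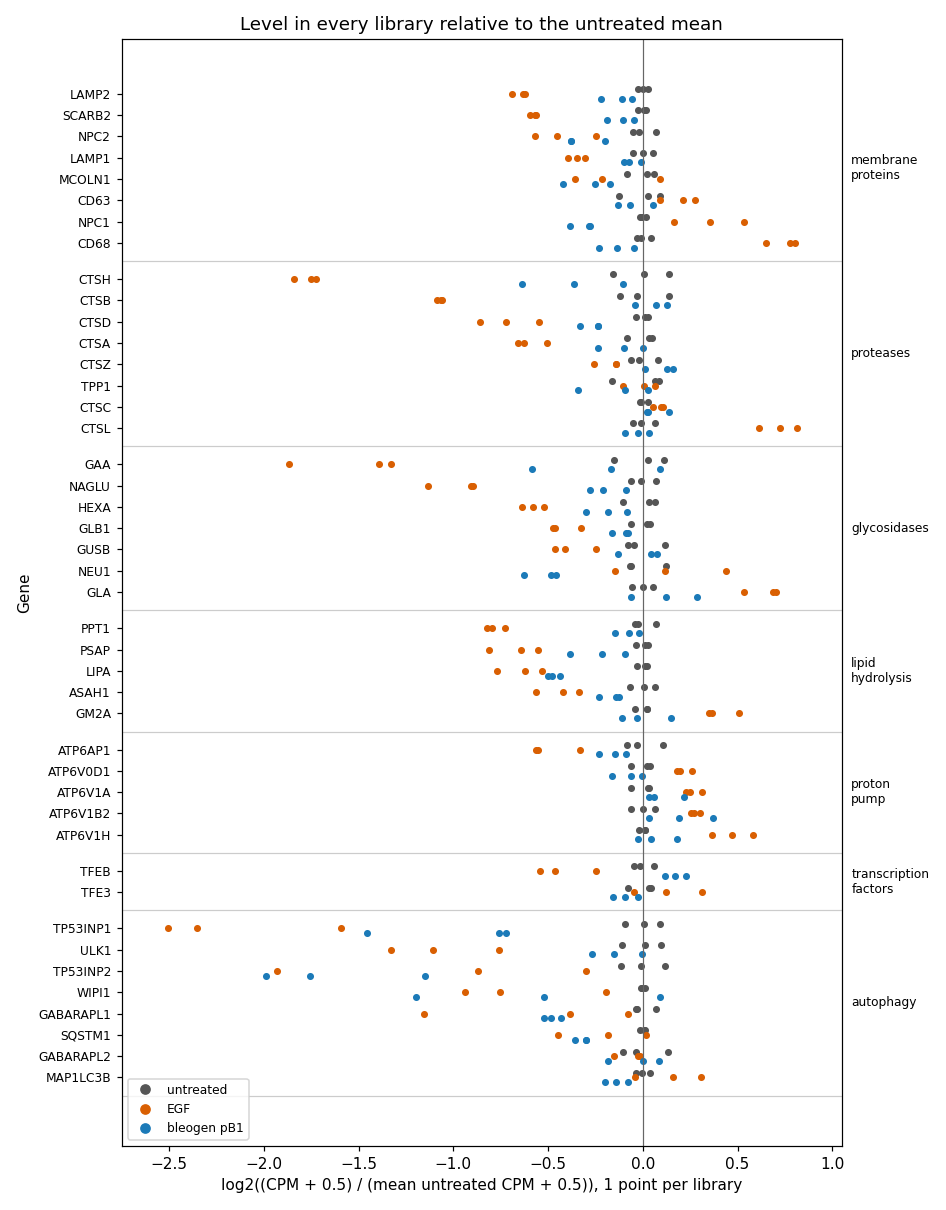
Level of each of the 43 genes in every library as log2 of CPM (plus 0.5) over the mean of the untreated libraries (plus 0.5), grouped by role and ordered within each role by the EGF fold change, with 1 point per library. EGF-treated libraries lie to the left of the untreated ones for most hydrolases, with CTSL, GLA and CD68 to the right, and bleogen pB1-treated libraries lie near the untreated ones except for a few genes such as TP53INP1 and TP53INP2.

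Among the 8 membrane proteins, lipid carriers and the calcium channel, 2 fell (25.0%, against 21.8% of all genes) and 1 rose (12.5%, against 15.1%) with EGF. LAMP2, which lines the lysosomal membrane and serves as a receptor in chaperone-mediated autophagy, stood at 255, 251 and 246 CPM in the untreated, 155, 162 and 163 CPM in the EGF-treated and 241, 215 and 233 CPM in the bleogen pB1-treated libraries. It fell with EGF by 0.65 ± 0.06 (adjusted p = 7.9e-07) on the log2 scale. SCARB2, which escorts glucocerebrosidase to the lysosome, fell alongside it, with a log2FC of −0.58 ± 0.06 (adjusted p = 1.7e-06). LAMP1 was at 705, 732 and 680.4 CPM untreated, 536, 571 and 555 CPM with EGF and 701, 658 and 672 CPM with bleogen pB1. All 3 EGF-treated libraries lay under all untreated ones, with a log2FC of −0.35 ± 0.06 (adjusted p = 0.00012) that stayed short of the limit of 0.5. CD68, a glycoprotein of late endosomes and lysosomes that is abundant in macrophages, rose from 11.8, 12.2 and 11.6 CPM to 21.0, 18.9 and 20.6 CPM with EGF (0.77 ± 0.09, adjusted p = 1.1e-05) and stood at 11.4, 10.7 and 10.0 CPM with bleogen pB1. Of 6 macrophage markers, 4 were under 1 CPM in every library (PTPRC, CD14, CD163 and CSF1R) and MRC1 was listed in no file. ITGAM, an integrin subunit of myeloid cells, rose with EGF, from 0.34, 0.54 and 0.81 CPM to 0.40, 2.5 and 1.7 CPM (1.45 ± 0.55, adjusted p = 0.032), although these libraries overlapped. Its part in the CD68 result was not tested, and the summed level of the list was 0.723 to 1.29 CPM untreated, 0.850 to 3.37 CPM with EGF and 0.764 to 1.45 CPM with bleogen pB1. An lncRNA annotated on the strand of CD68 covers 81.6% of its exonic bases, and its part in the counts was not tested. Of the others, NPC1, which exports cholesterol across the membrane, was higher by 0.36 ± 0.08 (adjusted p = 0.0014) and NPC2, its luminal partner, lower by 0.42 ± 0.08 (adjusted p = 0.00056), both under the fold change limit, and the tetraspanin CD63 was higher by 0.20 ± 0.07 (adjusted p = 0.030). The calcium channel MCOLN1 had a log2FC of −0.15 ± 0.13 (adjusted p = 0.30), and its EGF-treated and untreated libraries overlapped.

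Of the 8 proteases, 4 fell with EGF, against 21.8% of all genes, and 1 rose (12.5%, against 15.1%). Cathepsin H (CTSH), an aminopeptidase, stood at 189.7, 208 and 169 CPM in untreated and 55.8, 56.9 and 52.4 CPM in EGF-treated cells, and at 176, 121 and 147 CPM with bleogen pB1. Its log2FC with EGF was −1.78 ± 0.12 (adjusted p = 6.9e-08). Cathepsin B (CTSB), which cleaves within proteins and from their carboxyl end, went from 309, 348 and 290.3 CPM to 151, 151 and 148 CPM with EGF (−1.07 ± 0.07, adjusted p = 7.6e-08), while the bleogen pB1-treated libraries were at 346, 306 and 331 CPM and overlapped with the untreated ones. CTSD (chromosome 11, 1752752 to 1764573, minus strand of GRCh38) was at 1487, 1470.5 and 1425 CPM untreated, 806, 999 and 885 CPM with EGF and 1239.9, 1160.3 and 1239 CPM with bleogen pB1, with a log2FC of −0.70 ± 0.07 (adjusted p = 3.8e-06) for EGF. Its bleogen pB1-treated libraries also lay under all untreated ones, at a log2FC of −0.27 ± 0.07 (adjusted p = 0.059). CTSA, a carboxypeptidase that also protects the sialidase NEU1 and the galactosidase GLB1, fell by 0.60 ± 0.07 (adjusted p = 9.3e-06). CTSL, a cysteine endopeptidase of the same family as CTSB, moved the other way and rose from 56.2, 59.1 and 54.5 CPM to 86.7, 99.9 and 93.8 CPM (0.72 ± 0.07, adjusted p = 1.5e-06), and it stood at 55.7, 52.9 and 58.0 CPM with bleogen pB1. The remaining members had log2 fold changes of −0.18 for CTSZ (adjusted p = 0.024), 0.08 for CTSC (adjusted p = 0.18) and −0.01 for TPP1 (adjusted p = 0.93).

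Among the 7 glycosidases, 3 fell with EGF (42.9%, against 21.8% of all genes) and 1 rose (14.3%, against 15.1%). Acid alpha-glucosidase (GAA, chromosome 17, 80101533 to 80119881, plus strand), which breaks down glycogen, was at 31.6, 29.9 and 26.3 CPM in untreated cells and 7.65, 11.3 and 10.8 CPM after EGF, with a log2FC of −1.56 ± 0.17 (adjusted p = 6.1e-06). With bleogen pB1 it was at 31.1, 19.3 and 26.0 CPM, so that 1 library lay within the untreated range and the other 2 below it. NAGLU, which removes N-acetylglucosamine from heparan sulfate, went from 74.8, 79.3 and 72.3 CPM to 34.1, 40.4 and 40.0 CPM with EGF (−0.98 ± 0.08, adjusted p = 4.2e-07) and stood at 70.8, 62.0 and 65.2 CPM with bleogen pB1. HEXA, the alpha subunit of the hexosaminidase that degrades GM2 ganglioside, fell by 0.58 ± 0.07 (adjusted p = 1.5e-05). GLA, the alpha-galactosidase that acts on globotriaosylceramide, rose, with a log2FC of 0.65 ± 0.09 (adjusted p = 2.4e-05). The beta-galactosidase GLB1 and the beta-glucuronidase GUSB were lower without reaching the limit of 0.5, at −0.42 ± 0.07 (adjusted p = 9.1e-05) and −0.38 ± 0.09 (adjusted p = 0.0019). NEU1, the lysosomal sialidase, was at 42.1, 48.0 and 42.2 CPM untreated and 39.7, 59.9 and 47.9 CPM with EGF, and the 2 groups overlapped.

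In lipid hydrolysis, 3 of 5 members fell with EGF (60.0%, against 21.8% of all genes). PPT1, which removes palmitate from proteins, stood at 336, 358 and 332 CPM untreated, 207, 193 and 197 CPM with EGF and 337, 325 and 308 CPM with bleogen pB1, and its log2FC with EGF was −0.78 ± 0.06 (adjusted p = 2.0e-07). PSAP was at 795, 803 and 770.0 CPM, 450.0, 538 and 505 CPM and 738, 605 and 679 CPM in the same order of groups, with a log2FC of −0.67 ± 0.08 (adjusted p = 1.2e-05) for EGF. Both treatments placed all their libraries of PSAP under the untreated ones, although the test of bleogen pB1 gave −0.23 ± 0.08 (adjusted p = 0.12). LIPA, the acid lipase that hydrolyses cholesteryl esters and triglycerides, fell by 0.64 ± 0.06 (adjusted p = 2.2e-06) with EGF. ASAH1, the acid ceramidase, was lower at −0.44 ± 0.07 (adjusted p = 9.8e-05) and GM2A, which presents GM2 ganglioside to hexosaminidase A, was higher at 0.41 ± 0.07 (adjusted p = 0.00026), both under the fold change limit.

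None of the 5 proton pump members was a DEG with EGF in edgeR's test or in DESeq2. At adjusted p alone, as at an unadjusted p under 0.05, 4 were higher and 1 lower. ATP6V1H, a regulatory subunit of the cytoplasmic sector, had a log2FC of 0.48 ± 0.07 (adjusted p = 5.4e-05). ATP6V1A and ATP6V1B2, which form the ATP-hydrolysing head, were higher by 0.26 ± 0.06 (adjusted p = 0.0022) and 0.27 ± 0.08 (adjusted p = 0.0069), and ATP6V0D1 of the membrane sector by 0.21 ± 0.06 (adjusted p = 0.0086). The accessory subunit ATP6AP1 was lower, at −0.48 ± 0.07 (adjusted p = 9.6e-05). Of 22 pump genes counted with the other subunits, 19 were tested, of which 3 rose (15.8%, against 15.1% of all genes) and 2 fell (10.5%, against 21.8%). At adjusted p alone 12 were higher (63.2%, against 32.4%) and 4 lower (21.1%, against 33.6%). ATP6V0B and ATP6V0A2, both of the membrane sector, had log2 fold changes of 0.81 and 0.75, and ATP6V1D of the central stalk one of 0.68. ATP6V1B1, the alternative head subunit known from kidney and inner ear, fell from 36.4, 36.8 and 29.7 CPM to 1.60, 1.26 and 1.30 CPM (−4.62 ± 0.32, adjusted p = 1.2e-07), whereas its bleogen pB1-treated libraries spread over 43.4, 17.7 and 28.8 CPM. With upper-quartile scaling ATP6V1B2 and ATP6V0D1 kept their direction but missed the threshold (adjusted p = 0.058 and 0.13), and ATP6AP1 became a DEG at −0.59. In all, ATP6AP1 was a DEG in 5 of 11 processing alternatives and in 2 of 6 fits that left out 1 library. ATP6V1H was a DEG in 1 of those 6 fits.

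**Figure D3:**
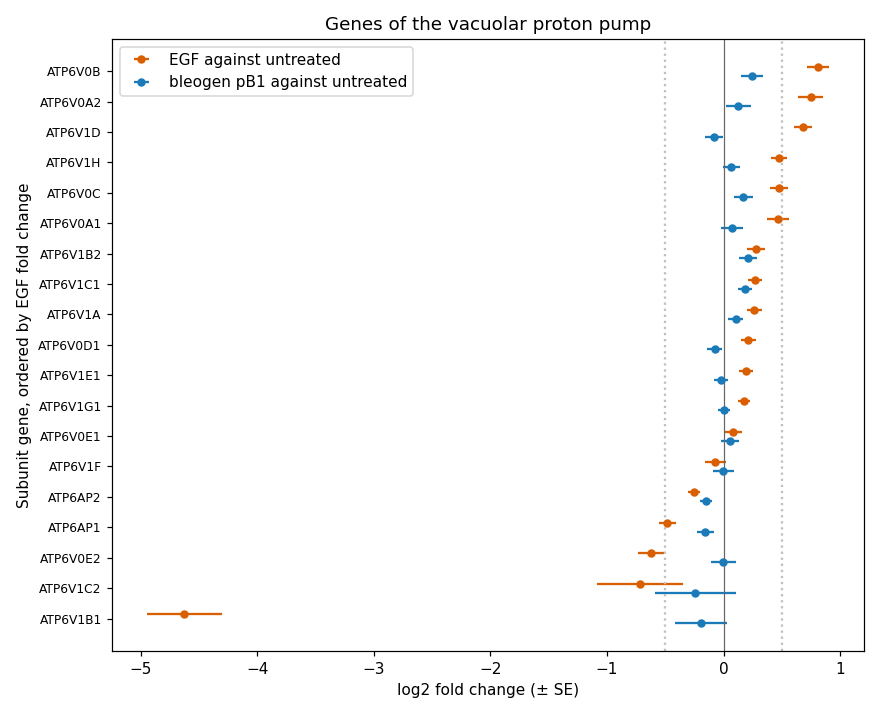
Log2 fold change (± SE) of the 19 pump genes tested, for EGF (orange) and bleogen pB1 (blue) against the same untreated libraries, with dotted lines at the limits of 0.5 in each direction. Most EGF points lie between 0 and 0.81, ATP6V1B1 lies at −4.62, and all bleogen pB1 points lie between −0.24 and 0.24.

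Neither transcription factor was a DEG with either treatment in edgeR or DESeq2, and by an unadjusted p under 0.05 only TFEB with EGF passed. TFEB was a DEG with EGF without EGF replicate 1 (log2FC −0.52) and with upper-quartile factors (−0.54). TFEB was at 11.5, 12.2 and 11.3 CPM in untreated, 9.75, 7.85 and 8.33 CPM in EGF-treated and 12.7, 13.2 and 13.7 CPM in bleogen pB1-treated cells. Its 3 groups did not overlap, with EGF lowest and bleogen pB1 highest, at log2 fold changes of −0.43 ± 0.11 (adjusted p = 0.0035) for EGF and 0.18 ± 0.10 (adjusted p = 0.35) for bleogen pB1. TFE3 had a log2FC of 0.14 ± 0.08 (adjusted p = 0.16) with EGF and −0.09 ± 0.08 (adjusted p = 0.55) with bleogen pB1. These are transcript levels, and the position of the proteins in the cell was not measured. The 5 genes whose promoters are printed above moved in both directions with EGF, from −1.56 in GAA, −0.60 in CTSA, −0.35 in LAMP1 and −0.15 in MCOLN1 to 0.21 in ATP6V0D1.

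Of the 8 autophagy proteins, 3 fell with EGF (37.5%, against 21.8% of all genes) and none rose. At an unadjusted p under 0.05, 0 were higher, and DESeq2 called the same number of each. TP53INP1, a p53-induced protein that binds LC3, had the largest fall of all 43 members, from 15.8, 14.9 and 13.9 CPM to 2.20, 4.58 and 2.50 CPM (−2.26 ± 0.25, adjusted p = 5.1e-06). ULK1, the kinase that starts autophagosome formation, went from 47.1, 44.4 and 40.8 CPM to 17.2, 25.8 and 20.2 CPM (−1.06 ± 0.12, adjusted p = 9.2e-06), and its bleogen pB1-treated libraries were at 44.0, 36.6 and 39.7 CPM. TP53INP2, which binds LC3 and is found at autophagosomes, was at 10.2, 9.33 and 8.64 CPM untreated and spread over 2.10, 7.55 and 4.91 CPM with EGF (−0.95 ± 0.32, adjusted p = 0.019). The ubiquitin-binding cargo receptor SQSTM1, also known as p62, was at 456, 462 and 464 CPM untreated, 338, 467 and 406 CPM with EGF and 375, 359 and 374 CPM with bleogen pB1. Only the bleogen pB1-treated libraries of SQSTM1 lay apart from the untreated ones, at −0.32 ± 0.09 (adjusted p = 0.064), with −0.19 ± 0.09 (adjusted p = 0.075) for EGF. MAP1LC3B, the membrane-bound LC3 commonly used as an autophagosome marker, was at 82.8, 85.1 and 81.0 CPM, 80.7, 103 and 92.7 CPM and 75.1, 78.4 and 72.1 CPM in the same order. Its log2 fold changes were 0.15 ± 0.08 (adjusted p = 0.11) for EGF and −0.14 ± 0.08 (adjusted p = 0.32) for bleogen pB1. GABARAPL1, an LC3 relative, was lower with EGF at −0.47 ± 0.18 (adjusted p = 0.034) with libraries at 52.3, 111 and 89.8 CPM against 114, 123 and 115 CPM, and its relative GABARAPL2 had a log2FC of −0.06 ± 0.09 (adjusted p = 0.54). GABARAPL1 was a DEG with EGF in 6 of 11 processing alternatives and in 1 of 6 fits that left out 1 library. WIPI1, which binds the lipid of the forming autophagosome, was the least abundant member and had a log2FC of −0.79 ± 0.38 (adjusted p = 0.086). Without EGF replicate 3 or untreated replicate 1, TP53INP2 was no longer a DEG (adjusted p = 0.052 to 0.061).

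Other genes of the same pathways were read from lists of 154 genes, of which 146 were tested and none is a member. With EGF, 36 of them fell (24.7%, against 21.8% of all genes) and 12 rose (8.22%, against 15.1%). Of the other lysosomal hydrolases 13 of 28 tested fell (46.4%) and 0 rose in edgeR and in DESeq2 (0 higher at an unadjusted p under 0.05). Cathepsin O (CTSO) was at 7.66, 7.17 and 7.45 CPM untreated and 0.700, 0.655 and 0.626 CPM with EGF (−3.48 ± 0.20, adjusted p = 1.7e-08), and the carboxypeptidase SCPEP1 and cathepsin S (CTSS) had log2 fold changes of −1.43 and −1.31. Of 18 other membrane proteins, 8 fell (44.4%) and 1 rose, led by LAMP3 at −4.24 ± 0.18 (adjusted p = 1.3e-09), the RNA transporter SIDT2 at −1.79 and GLMP at −1.32. In the sorting of enzymes to the lysosome 2 of 12 fell (16.7%, against 21.8% of all genes). These were GNPTG (−0.58) and GNPTAB (−0.54), the subunits of the enzyme that starts the mannose 6-phosphate tag. Of 21 genes of the TFEB family and of mTORC1 control 2 rose (9.52%, against 15.1% of all genes) and 2 fell (9.52%, against 21.8%). Among them were RRAGB at −1.01, LAMTOR4 at −0.68 and the mTORC1 substrate AKT1S1 at 0.52. The log2 fold changes of this list reached 2.21, but only DEGs with a mean of at least 50 counts were named.

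Autophagosome formation had DEGs in both directions, with 6 of 32 genes higher (18.8%, against 15.1% of all genes) and 4 lower (12.5%, against 21.8%). ATG16L1, part of the enzyme that attaches LC3 to lipid, rose from 24.5, 22.6 and 24.1 CPM to 85.2, 84.0 and 87.4 CPM (1.85 ± 0.09, adjusted p = 3.7e-09), and the LC3-processing protease ATG4A had a log2FC of 1.59. AMBRA1, which activates the lipid kinase of early autophagy, fell, with a log2FC of −1.05. Of 9 cargo receptors 3 fell (33.3%, against 21.8% of all genes), the endoplasmic reticulum receptor RETREG1 (−1.87), OPTN (−1.04) and NBR1 (−0.67). Of 12 genes of fusion with the lysosome 2 fell (16.7%, against 21.8% of all genes), the SNARE protein STX17 (−0.85) and VPS39 (−0.62).

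Bleogen pB1 changed few of the 43 genes. In the test, 3 were DEGs, all lower, and 1.48% of all genes were DEGs in this comparison (1.26% lower and 0.218% higher). They were the sialidase NEU1 and the autophagy proteins TP53INP1 and TP53INP2. No member was a DEG on the higher side in edgeR or DESeq2. At an unadjusted p under 0.05, 1 was higher and 16 were lower, but the share of all genes at that limit was not counted. At adjusted p alone 6 members were lower and 0 higher, against 2.55% and 1.56% of all genes, 4.11% in both directions. In 20 members the libraries did not overlap with the untreated ones, 19 lower and 1 (TFEB) higher, and 29.1% of all genes did not overlap (14.7% lower and 14.4% higher). The median log2 fold change was −0.13 over the members and −0.001 over all genes. Together the 43 genes took 0.748%, 0.698% and 0.728% of the counts of the 3 libraries.

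NEU1 (chromosome 6, 31857659 to 31862905, minus strand) was at 42.1, 48.0 and 42.2 CPM in untreated and 31.3, 28.4 and 32.0 CPM in bleogen pB1-treated cells. All bleogen pB1-treated libraries were the lower ones, with a log2FC of −0.53 ± 0.12 (adjusted p = 0.034). TP53INP1 (chromosome 8, 94925972 to 94949378, minus strand) went from 15.8, 14.9 and 13.9 CPM to 8.55, 5.10 and 8.80 CPM (−0.99 ± 0.22, adjusted p = 0.029), with the EGF-treated libraries lower still, as given above. TP53INP2 (chromosome 20, 34704339 to 34713439, plus strand) was at 3.97, 2.00 and 2.43 CPM, and the highest of these stood under the lowest untreated library (−1.75 ± 0.34, adjusted p = 0.014). The mean of TP53INP2 was lower with bleogen pB1 than with EGF, but the direct comparison did not pass the threshold (log2FC of EGF against bleogen pB1 0.80 ± 0.36, adjusted p = 0.075). Of the 6 fits that leave out 1 library each, most lost these calls. NEU1 and TP53INP1 stayed DEGs only without bleogen pB1 replicate 1, and TP53INP2 only without that library or without untreated replicate 3, with adjusted p between 0.056 and 0.15 in the fits that lost a call.

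The remaining 3 members past adjusted p alone were LIPA, NPC1 and NPC2, all under the fold change limit, and they were singled out after their values were seen. LIPA was at 407, 411 and 396 CPM in untreated and 299, 286 and 290.1 CPM in bleogen pB1-treated cells, a narrow spread on both sides, with a log2FC of −0.47 ± 0.06 (adjusted p = 0.0011). With EGF it was at 237, 279.6 and 263 CPM. The exons of LIPA overlap those of IFIT2 and IFIT3 on the opposite strand by 1.33% and 1.92% of its exonic bases, and whether the counting used strand is not given in the sources used here. NPC1 (chromosome 18, 23506184 to 23586506, minus strand) stood at 121, 124 and 122 CPM untreated, 137, 178 and 157 CPM with EGF and 93.7, 101 and 101 CPM with bleogen pB1. Its 3 groups did not overlap and the 2 treatments lay on opposite sides of the untreated cells, with −0.32 ± 0.08 (adjusted p = 0.047) for bleogen pB1. NPC2 was lower with both, at 320.1, 341 and 313 CPM untreated, 219, 273 and 237 CPM with EGF and 283, 249 and 249 CPM with bleogen pB1 (−0.32 ± 0.08, adjusted p = 0.049). Over all alternatives the adjusted p with bleogen pB1 ran from 0.0054 to 0.17 for NPC1 and from 0.0065 to 0.19 for NPC2, and stayed at 0.012 or less for LIPA.

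The other groups gave no DEG with bleogen pB1 in edgeR or DESeq2. Of the 8 proteases, 0 were higher and 2 lower at an unadjusted p under 0.05, and the log2 fold changes ran from −0.35 (CTSH) to 0.10 (CTSZ). Of the 5 proton pump members 1 was higher and 0 lower by the same measure, from −0.16 (ATP6AP1) to 0.21 (ATP6V1B2). Among the 146 other pathway genes tested, 2 fell (1.37%, against 1.26% of all genes) and 0 rose (7 higher and 16 lower at an unadjusted p under 0.05). At adjusted p alone 1 of them was higher (0.685%, against 1.56% of all genes) and 4 were lower (2.74%, against 2.55%). The share of all genes at an unadjusted p under 0.05 was not counted, so the counts at that limit cannot be set against it. LAMP3, a relative of LAMP1 also known as DC-LAMP, was at 28.6, 24.4 and 22.0 CPM in untreated and 13.6, 11.4 and 12.6 CPM in bleogen pB1-treated cells (−0.997 ± 0.13, adjusted p = 0.0011). CTSO was at 5.78, 4.27 and 4.54 CPM with bleogen pB1 (−0.61 ± 0.15, adjusted p = 0.039).

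**Figure D4:**
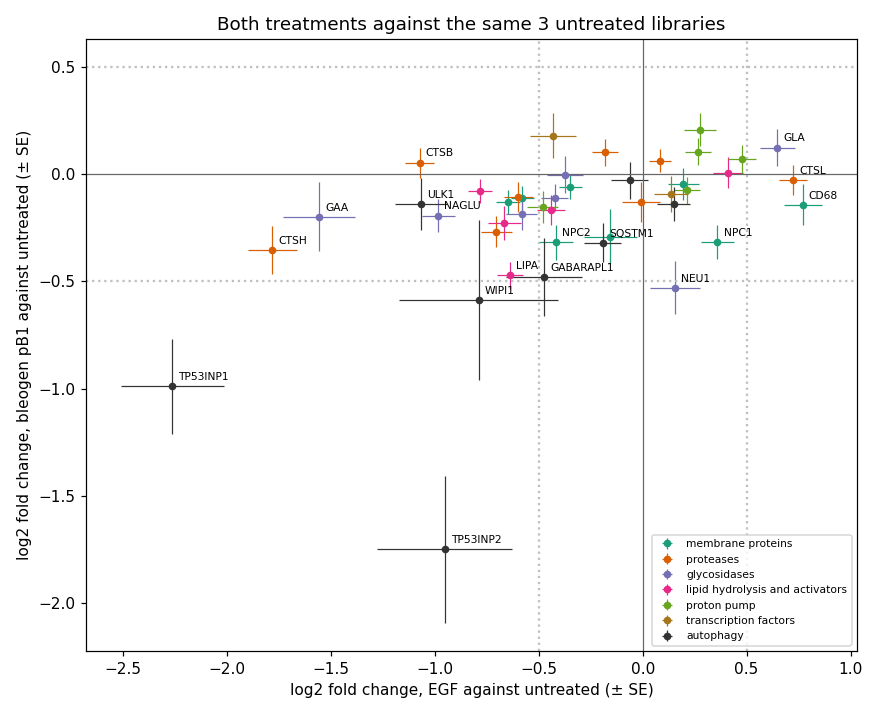
Log2 fold change (± SE) of the 43 genes with EGF (horizontal axis) and with bleogen pB1 (vertical axis), both against the same 3 untreated libraries, coloured by role, with dotted lines at the limits of 0.5. TP53INP1 lies at −2.26 and −0.99, TP53INP2 at −0.95 and −1.75, and NPC1 at 0.36 and −0.32. Since both axes share their control libraries, the plot is no test of likeness.

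The treatments were also compared directly, with 10 nM EGF and 1 µM bleogen pB1 as the doses used. In this test 14 members were DEGs, 9 lower and 5 higher with EGF, and 28.8% of all genes were DEGs (18.0% lower and 10.8% higher). The hydrolases CTSH (−1.43 ± 0.12, adjusted p = 6.5e-07), GAA (−1.36 ± 0.17, adjusted p = 3.0e-05), CTSB (−1.13 ± 0.07, adjusted p = 7.0e-08), NAGLU (−0.79 ± 0.08, adjusted p = 4.0e-06) and PPT1 (−0.70 ± 0.06, adjusted p = 7.3e-07) were lower with EGF. So were the autophagy genes TP53INP1 (−1.27 ± 0.26, adjusted p = 0.00099) and ULK1 (−0.93 ± 0.13, adjusted p = 4.7e-05), TFEB (−0.61 ± 0.11, adjusted p = 0.00038) and LAMP2 (−0.52 ± 0.06, adjusted p = 7.5e-06). Higher with EGF were CD68 (0.91 ± 0.09, adjusted p = 4.4e-06), CTSL (0.75 ± 0.07, adjusted p = 1.7e-06), NEU1 (0.69 ± 0.12, adjusted p = 0.00043), NPC1 (0.68 ± 0.08, adjusted p = 1.6e-05) and GLA (0.52 ± 0.08, adjusted p = 0.00019). TFEB, NEU1 and NPC1 passed the limits here and not with EGF against untreated cells. In 32 members the 2 groups of libraries did not overlap (21 lower, 11 higher), against 62.4% of all genes (31.7% lower, 30.7% higher). At adjusted p alone 33 members passed, 21 lower and 12 higher, against 58.2% of all genes (29.7% lower, 28.5% higher). With upper-quartile factors, and likewise with library size alone, 4 members were higher and 13 lower. At the same limits GLA was a DEG in 6 of 11 processing alternatives and was short of the fold change limit with library size alone, upper-quartile factors and the limma fits on FPKM (log2FC 0.43 to 0.45), as it did without bleogen pB1 replicate 1 (log2FC 0.44), and LAMP2 was not one without that library or without EGF replicate 1 (−0.50 to −0.49).

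**Figure D5:**
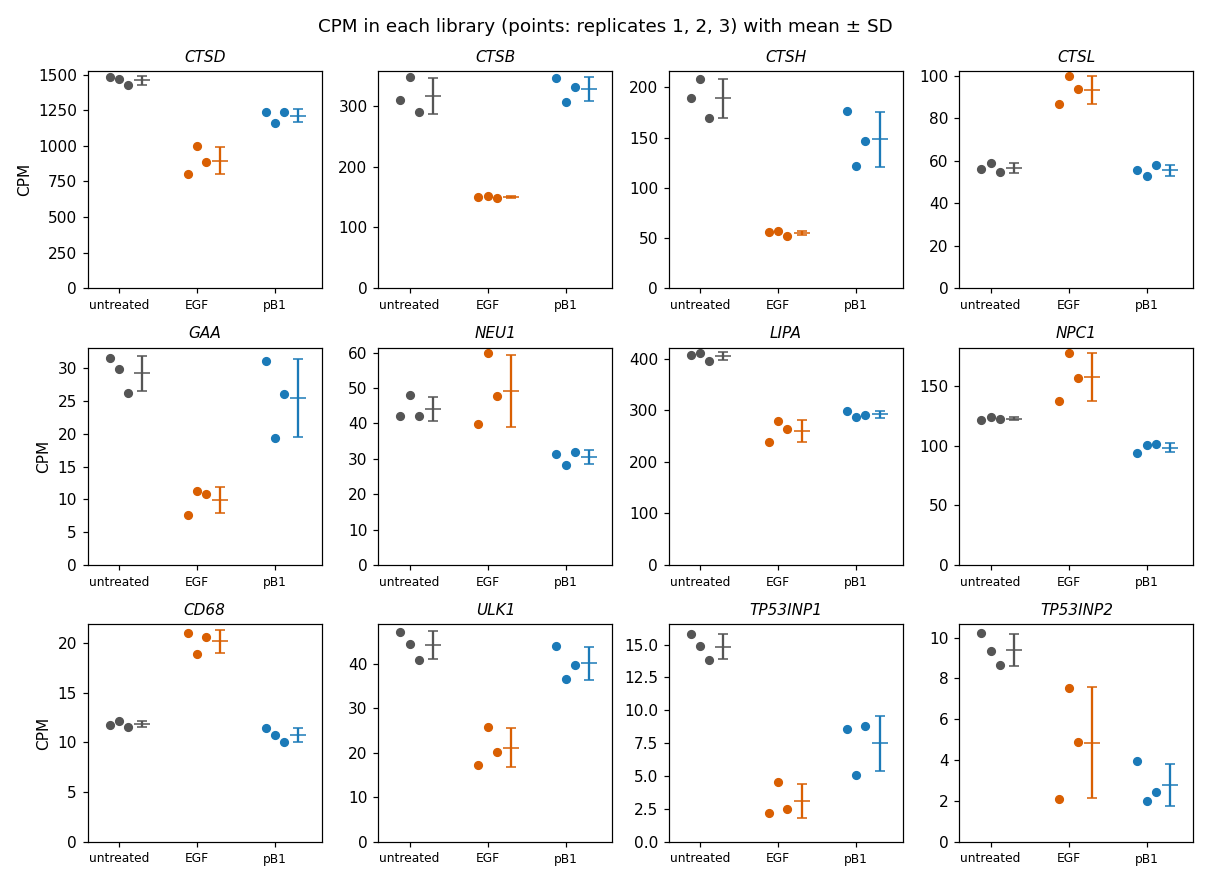
CPM of 12 of the genes in each library (points, replicates 1 to 3 from left to right within a group) with the group mean ± SD (n = 3). CTSB, CTSH, GAA and ULK1 are low with EGF, CTSL and CD68 are high with EGF, NEU1 is low with bleogen pB1, and NPC1 is high with EGF and low with bleogen pB1.

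The libraries of a group were not alike over the 43 genes. The median coefficient of variation of the members came to 4.20% without treatment, 7.53% with EGF and 6.48% with bleogen pB1. Over all genes tested it was larger in each group, at 5.65%, 8.04% and 7.52%. Among the EGF-treated libraries, replicate 1 was the lowest in 30 of the 43 members (69.8%, against 39.5% of all genes tested) and replicate 2 the highest in 34 (79.1%, against 40.1%). Bleogen pB1 replicate 2 was the lowest of its group in 27 members (62.8%, against 39.9%) and replicate 1 the highest in 25 (58.1%, against 39.6%). In untreated cells replicate 3 was the lowest in 30 (69.8%, against 35.4%). The median log2 ratio of the 43 members to the untreated mean was −0.45, −0.26 and −0.41 in the 3 EGF-treated libraries and −0.06, −0.22 and −0.15 in the 3 treated with bleogen pB1, so that no bleogen pB1-treated library came down to an EGF-treated one. Several members share exonic bases with other genes. This can mix the reads of genes on opposite strands where strand was not used, and of genes on the same strand in either case. An opposite-strand gene covered 31.7% of the exonic bases of CTSZ (NELFCD), 24.4% of WIPI1 (ARSG), 23.4% of CTSD (PRADX) and 21.0% of SQSTM1 (MRNIP). Smaller overlaps of this kind included 13.2% of HEXA (an lncRNA), 11.1% of CTSA (NEURL2) and 8.99% of GLA (RPL36A). A protein-coding gene annotated on the strand of CTSD covered 22.9% of its exonic bases. Same-strand lncRNAs covered 12.9% of NAGLU and 11.6% of TPP1. MAP1LC3B has the near-identical copy MAP1LC3B2. The levels of these members are uncertain for that reason, and the share of reads concerned was not measured.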

How the data were processed

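RNA of the 9 HaCaT libraries was sequenced by BGI, and the reads were mapped to GRCh38.p12, as named in the submitters' processing notes. The authors deposited expected counts, which are unscaled estimates per gene that divide reads between transcripts, and the counting program and its use of strand are not given in the sources used here. The authors also deposited FPKM, scaled for gene length and depth. The gene lengths deposited by the authors were read and not tested. A gene absent from a file was counted as 0. The columns of all 9 files were used, with groups and replicate numbers taken from the sample titles and treatments in the labels.

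Expected counts were rounded and fitted in edgeR 4.0.16 under R 4.3.3 (genes kept by filterByExpr, TMM factors of 0.9635 to 1.0238, glmQLFit and glmQLFTest, all 9 libraries in 1 fit, 6 residual degrees of freedom), with Benjamini-Hochberg adjustment over 12394 genes. The limits for DEGs were 0.05 in adjusted p and 0.5 in |log2FC|. Counts at an unadjusted p under 0.05 were made for the members and lists only, so no share of all genes stands beside them. Standard errors were obtained as |log2FC| over the square root of F. CPM used TMM-scaled library sizes. The members and all lists were chosen with earlier results of these data known. Per-library values were given for every DEG of bleogen pB1, for up to 2 DEGs of EGF with the largest |log2FC| in each of the 7 roles, and for LAMP1, CTSD, CTSB, SQSTM1, MAP1LC3B and TFEB. Other pathway genes named are up to 3 DEGs of EGF with the largest |log2FC| in each of 8 lists, at a mean of at least 50 counts, and every DEG of bleogen pB1. ATP6V1D, NPC2, NPC1, LIPA, CTSL and GABARAPL1 were given such values or named outside this rule, after their values were seen. The alternatives were DESeq2 1.42.0, limma 3.58.1 on log2(FPKM + 1) and log2(FPKM + 0.1) with a mean FPKM of at least 1 or no filter, RLE, upper-quartile or no factors, no count filter or 10 counts in every library, the 6 libraries compared alone, other call limits, a replicate block and each library left out. In 3 simulated sets of EGF against untreated cells, edgeR recovered 182, 179 and 177 of 200 genes changed 2-fold, with 5, 3 and 7 false calls. The signs of these changes were drawn at random, whereas 4578 genes were DEGs with EGF in the data, more of them lower. The sets therefore do not cover smaller changes or a shift of so many genes. Gene coordinates (1-based, GRCh38) came from GENCODE release 44, and promoters from RefSeq on GRCh38.p14. Tables and exact permutation used Python 3.11.15, numpy 2.4.6 and pandas 2.3.3.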

Additional observations from a re-analysis of the deposited data

How the results depend on the processing

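No called member changed its direction under any alternative. With EGF, 17 of the 18 DEGs among the members stayed DEGs in every alternative fit at the same limits, the exception being TP53INP2, and in the direct comparison 12 of 14 did, the exceptions being LAMP2 and GLA. Of the members not called, 8 with EGF, 0 with bleogen pB1 and 5 in the direct comparison became DEGs in at least 1 alternative. At adjusted p alone, 34 members were called with EGF, 6 with bleogen pB1 and 33 in the direct comparison, out of 8187, 509 and 7214 genes. At |log2FC| of at least 1, 5, 1 and 4 of the 43 members were called, all lower, beside 1892, 31 and 1458 of 12394 genes. Of these genes 1363, 27 and 1022 were lower. With EGF the share of members lower at this limit was thus close to the share of all genes. With limma on log2(FPKM + 1) without a filter, 0 members and 99 genes were DEGs with bleogen pB1, with 1 member higher and 12 lower at an unadjusted p under 0.05. With each library left out in turn, DEGs among the members numbered 17 to 22 with EGF, 13 to 16 in the direct comparison and 0 to 3 with bleogen pB1, and over all genes 4405 to 4737, 3106 to 4041 and 102 to 436. The 0 DEGs came without bleogen pB1 replicate 2, bleogen pB1 replicate 3, untreated replicate 1 or untreated replicate 2. In these fits edgeR gave 9, 13, 12 and 10 lower members at an unadjusted p under 0.05, with no count over all genes at that limit. Without untreated replicate 3 the count was 1, and without bleogen pB1 replicate 1 it was 3. The cause was not tested. With upper-quartile factors the median of all genes with EGF shifted from −0.01 to −0.12 and that of the members from −0.42 to −0.52. Replicate numbers are shared by the groups, and the sources used here do not say whether they pair the samples. Correlations of same-numbered deviations were 0.045, 0.036 and 0.004 for EGF and untreated cells, 0.207, −0.030 and 0.113 for bleogen pB1 and untreated cells, and 0.056, 0.038 and 0.027 for EGF and bleogen pB1. Their means were 0.028, 0.096 and 0.040, against −0.014, −0.049 and −0.020 for different numbers. In the 3 comparisons 1, 2 and 1 of 3 correlated best with their own number. With 3 libraries a group, these values cannot decide whether the samples were paired. With the replicate block, 19, 3 and 14 members were DEGs, against 18, 3 and 14 without it. At this depth the SE of the EGF log2FC was 0.38 for WIPI1, the least abundant member, against 0.06 for LAMP2.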
